A study of Mus musculus with 2 samples.

Results

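The genes described here are the 6 mouse Cebp genes, Cebpa, Cebpb, Cebpd, Cebpe, Cebpg and Cebpz, together with Gfi1. They were taken by name from a table of 55487 genes, through the Ensembl ID of each GRCm38 symbol, and all 7 were found. The table holds RNA sequencing read counts from 2 cultures of C57BL/6 mouse bone marrow cells that had been depleted of lineage-positive cells. The first carried the retroviral vector pMYs-IG with EVI1-WT, the wild-type form under a 3xHA tag, and the second the same vector with 3xHA-tagged EVI1+18, a splice form of this zinc finger transcription factor. Both were sorted for GFP 3 days after infection and kept in a methylcellulose medium for about 3 weeks before RNA was taken. Both forms were overexpressed stably from a retrovirus, and cells without an EVI1 vector were not analysed here. The age of the mice and any pooling of marrow are details not given in the sources used here.

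C/EBP proteins are transcription factors that bind DNA as pairs, through a basic region and a leucine zipper. In the marrow they act in sequence. C/EBPα opens the path from progenitors to granulocytes and monocytes, C/EBPβ serves macrophages and granulocyte production under stress, and C/EBPε drives the late granulocyte programme. GFI1 is a zinc finger repressor that holds down monocyte and stem cell genes in the granulocyte path. Its paralog GFI1B does similar work in red-cell and platelet precursors.

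With 1 library for each form of EVI1, differences between them could not be checked against replicates. Intervals are 95% exact (Clopper-Pearson) counting intervals, which cover counting error only and compare the libraries rather than the vectors. The libraries held 20480447 counts (EVI1-WT) and 20981903 counts (EVI1+18). Levels are given as scaled CPM, which are counts relative to the TMM-scaled library size, and, between genes, as scaled CPM per kb of exon. Where a pair of values is given, that of EVI1-WT comes first. The leukocyte marker Ptprc stood at 347 and 228 scaled CPM. The summed level of 6 lymphoid markers was 0.250 and 0.326 scaled CPM, with Ms4a1 and Ncr1 among those at 0 counts in both libraries. Mecom, the gene of EVI1, had 180 scaled CPM with EVI1-WT and 209 with EVI1+18 (ratio 1.16, interval 1.11 to 1.21). Counts per gene do not tell vector transcripts from those of the mouse gene, so these values do not measure the level of either vector.

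Cebpe, the late granulocyte factor, was 4.03-fold lower in EVI1+18 and was the 1 gene of the 7 that was more than 2-fold apart beyond counting error. Cebpa and Gfi1 were lower by less, Cebpg was higher, and Cebpb, Cebpd and Cebpz lay close to equality. A gene was called when its whole counting interval lay past 2-fold, among the 13183 genes that reached 1 scaled CPM in either library, and all 7 genes passed that filter. By this rule 1 of 7 was lower, where 5.10% of all tested genes were, and 0 of 7 were higher, where 5.05% were. With 7 genes, 1 call is too few to set the group apart from all genes. These percentages are the background for every count of calls below, on lists and markers alike. The median log2 ratio of the 7 genes, with a prior count of 2, was -0.18, beside 0.01 over all tested genes. For 5 of the 7 genes the interval left out a ratio of 1, as it did for 66.2% of all tested genes.

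**Figure D1:**
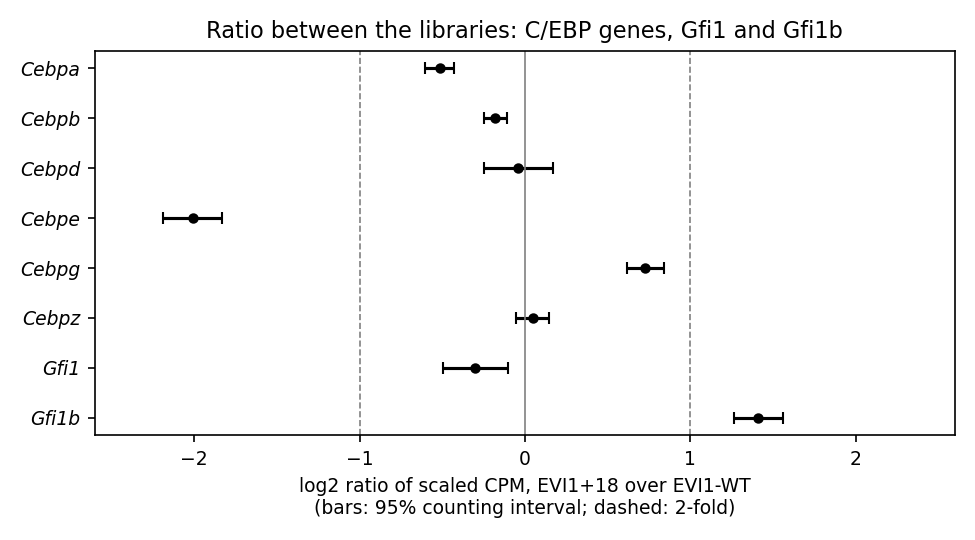
Log2 ratio of scaled CPM in EVI1+18 over EVI1-WT for the 6 Cebp genes, Gfi1 and its paralog Gfi1b. Points are the ratio of 1 library to 1 library, bars are 95% counting intervals, and dashed lines mark 2-fold. Cebpe lies beyond the 2-fold line on the lower side and Gfi1b beyond it on the higher side.

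Cebpa (ENSMUSG00000034957; GRCm38 chromosome 7, 35119293 to 35121928, plus strand) encodes the factor without which granulocytes do not form. It had 2484 counts with EVI1-WT and 1863 with EVI1+18, or 124 and 86.8 scaled CPM. Cebpa was 1.43-fold lower in EVI1+18 (interval 1.34 to 1.52). Of all tested genes, 17.3% had a lower ratio. Per kb of exon it stood at 47.1 and 32.9, above 91.1% and 87.2% of tested genes. Cebpa was thus well expressed in both libraries and the difference stayed short of 2-fold.

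Cebpg (ENSMUSG00000056216; chromosome 7, 35046422 to 35056573, minus strand) lies 62.7 kb from Cebpa on the opposite strand. It encodes C/EBPγ, a short family member that lacks the activation domain of the others and pairs with them and with ATF4. Cebpg had 1025 counts with EVI1-WT and 1818 with EVI1+18, or 51.2 and 84.7 scaled CPM. It was 1.66-fold higher in EVI1+18 (1.53 to 1.79), and 89.1% of tested genes had a lower ratio. The 2 neighbours therefore differed in direction, and in EVI1+18 their scaled CPM were nearly equal. Per kb of exon Cebpg stood at 9.11 and 15.1, below Cebpa in both libraries.

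The RefSeq promoter windows of these 2 genes (GRCm38.p6) are shown because the neighbours went in opposite directions. Each is the 250 bases before the annotated start, written 5′ to 3′ on the strand of the gene, with matches to the searched motifs in capitals.
Cebpa, chr7:35119043-35119292, plus strand: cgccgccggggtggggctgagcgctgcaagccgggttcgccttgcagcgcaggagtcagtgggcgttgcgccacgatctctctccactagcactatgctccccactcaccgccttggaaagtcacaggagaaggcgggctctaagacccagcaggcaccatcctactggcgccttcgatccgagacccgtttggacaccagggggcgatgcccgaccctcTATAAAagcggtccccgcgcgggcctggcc
Cebpg, chr7:35056567-35056816, minus strand: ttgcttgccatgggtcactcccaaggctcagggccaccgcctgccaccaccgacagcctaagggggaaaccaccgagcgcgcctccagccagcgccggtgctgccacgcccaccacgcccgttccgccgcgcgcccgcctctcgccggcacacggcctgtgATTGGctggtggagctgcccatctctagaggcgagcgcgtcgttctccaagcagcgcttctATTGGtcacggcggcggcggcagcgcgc
The capitals in the Cebpa window are 1 TATA box (TATAAA), 24 bases from the start. Those in the Cebpg window are 2 CCAAT boxes read on the opposite strand, 84 and 23 bases from the start. The letters TATAAA occur, on either strand, in 12.4% and CCAAT in 33.8% of 32851 such windows. The other motifs searched on both strands were a C/EBP site (TTGCGNAA, in 0.67% of windows), a GFI1 site (AATCNNNGC, 8.87%), an EVI1 site (GANAAGATA, 0.825%) and a GATA site (AGATAA, 9.99%). The last 2 share letters and can overlap. These 4 had no match in the windows of Cebpa, Cebpb, Cebpg or Gfi1, the 4 members found in the table. A match is a run of letters, not a site shown to be bound, and no match says only that these letters are not in this window. GC content was 66.4% for Cebpa and 70.8% for Cebpg. For Cebpb, whose window held no match to any of the 6 motifs, it was 81.6%.

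Cebpb (ENSMUSG00000056501; chromosome 2, 167688915 to 167690418, plus strand) encodes C/EBPβ, a mediator of inflammatory and macrophage gene expression. Its level was 3665 counts with EVI1-WT and 3470 with EVI1+18, or 183 and 162 scaled CPM. It was 1.13-fold lower in EVI1+18 (1.08 to 1.19), and 33.7% of tested genes had a lower ratio. Per kb of exon it stood at 122 and 108, the highest of the 7 genes in both libraries. Part of the gene is shared ground, since 312 exon bases of Cebpb also lie in exons of Tmem189 on the opposite strand. Tmem189 had 70.6 and 50.6 scaled CPM. No source used here states whether the counting used strand, or whether reads that overlap both genes were counted or dropped. Reads in the shared stretch thus cannot be assigned to either gene, and the Cebpb count may hold them or lack them.

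Cebpd (ENSMUSG00000071637; chromosome 16, 15887286 to 15891031, plus strand) encodes C/EBPδ, a factor induced in acute inflammation. It had 372 and 388 counts, or 18.6 and 18.1 scaled CPM. The ratio of EVI1+18 over EVI1-WT was 0.974 (0.842 to 1.13). The interval held equality, and the sign of the log2 ratio turned with the scaling, from -0.04 with TMM to 0.03 with total counts. Its exons share 562 bases with those of Spidr on the opposite strand, which had 24.9 and 27.8 scaled CPM. Per kb of exon Cebpd was the lowest of the 7 genes, at 4.96 and 4.83.

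Cebpe (ENSMUSG00000052435; chromosome 14, 54710360 to 54712174, minus strand) encodes C/EBPε, which neutrophils and eosinophils need for their later granule proteins. Its level was 1259 counts with EVI1-WT and 335 with EVI1+18, or 62.9 and 15.6 scaled CPM. The EVI1-WT library was the high one. Cebpe was 4.03-fold lower in EVI1+18 (3.57 to 4.56), and 2.78% of tested genes had a lower ratio. Per kb of exon Cebpe stood at 50.7 in EVI1-WT, second only to Cebpb among the 7, and at 12.6 in EVI1+18, where Cebpa, Cebpb, Cebpg and Cebpz were higher. No 50-base word of its transcripts occurs in a transcript of another gene and no annotated gene overlaps it. In bulk RNA, fewer cells of a type and less RNA per cell cannot be told apart. Eosinophil markers moved with Cebpe: 4 of 5 tested were called lower and 1 higher, which was Siglecf (5.69 and 24.1 scaled CPM). Their summed level was 854 scaled CPM with EVI1-WT and 172 with EVI1+18, with no marker at 0. This was not particular to eosinophils. Of 9 mast cell and basophil markers, 6 were called lower and 2 higher, and of 13 neutrophil genes, 8 were called lower and 0 higher, as described below. The part of these cell types in the Cebpe result was not tested.

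Cebpz (ENSMUSG00000024081; chromosome 17, 78919006 to 78937066, minus strand) carries the family name for its link to CCAAT sequences but has no basic leucine zipper. Its protein belongs to a group of nucleolar proteins that act in making ribosomes. It had 1602 and 1773 counts, or 80.0 and 82.6 scaled CPM. The ratio was 1.03 (0.965 to 1.11), so the interval held equality. Cebpzos, which overlaps it on the opposite strand, had 2.90 and 3.54 scaled CPM, far below Cebpz in both libraries.

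Gfi1 (ENSMUSG00000029275; chromosome 5, 107716657 to 107726036, minus strand) had 462 counts with EVI1-WT and 402 with EVI1+18, or 23.1 and 18.7 scaled CPM. It was 1.23-fold lower in EVI1+18 (1.07 to 1.41). Of all tested genes, 26.1% had a lower ratio. Its paralog Gfi1b (ENSMUSG00000026815; chromosome 2, 28609450 to 28621982, minus strand) had 519 and 1479 counts, or 25.9 and 68.9 scaled CPM. Gfi1b was called 2.66-fold higher (2.41 to 2.95). The paralogs were close in counts in EVI1-WT and apart in EVI1+18, where Gfi1b was the high one. Per kb of exon Gfi1b was above Gfi1 in both libraries. There Gfi1b stood at 14.2 and 37.7, and Gfi1 at 7.24 and 5.88. Red-cell and platelet markers moved with Gfi1b. Of 8 erythroid markers, 7 were called higher, with a summed level of 881 and 7100 scaled CPM and none at 0. Most of that sum came from the globin genes Hba-a1 (323 and 3495) and Hbb-bt (550.5 and 3484). Of 6 tested megakaryocyte markers, 5 were called higher, with a summed level of 464 and 1261 scaled CPM, and Gp1bb and Tubb1 were among those at 0 counts in EVI1-WT. Their part in the Gfi1b result was not tested.

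**Figure D2:**
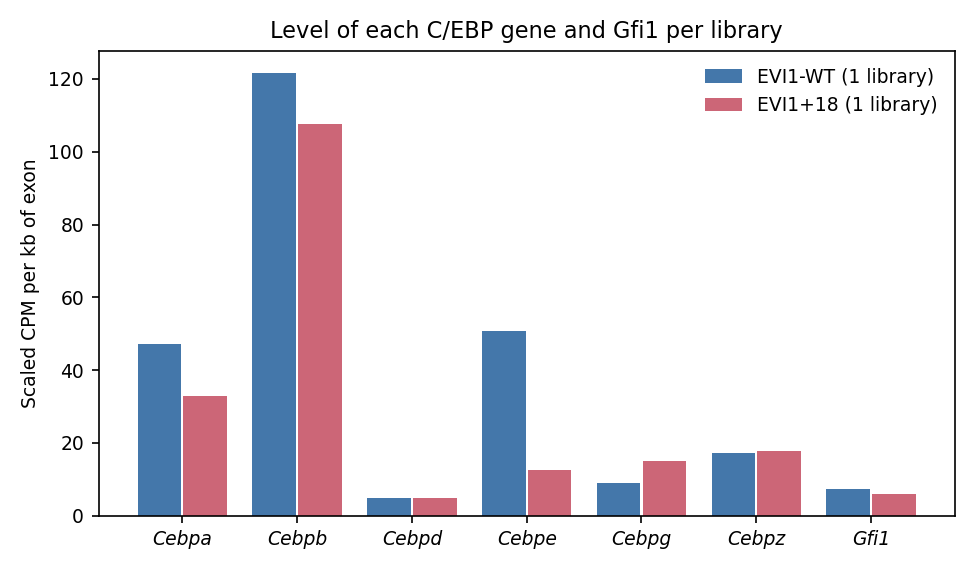
Level of each gene in scaled CPM per kb of exon, with 1 bar per library and no error bar because each bar is 1 library. Cebpb is the highest in both libraries, and Cebpe, next to it in EVI1-WT at 50.7, stands at 12.6 in EVI1+18.

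Ratios between genes of one library do not depend on how the libraries are scaled. They are ratios of counts unless given per kb of exon, so exon length enters each ratio but not its change between the libraries. Counts of Cebpa were 1.97 times those of Cebpe with EVI1-WT and 5.56 times with EVI1+18, a 2.82-fold wider gap (exact conditional interval 2.46 to 3.23). Per kb of exon, Cebpa was 0.929 times Cebpe with EVI1-WT and 2.62 times with EVI1+18. Counts of Cebpa were 0.678 times those of Cebpb with EVI1-WT and 0.537 times with EVI1+18, a change of 0.792 (0.734 to 0.855). The balance of the granulocyte factors tilted away from Cebpe, since Cebpe was 2.73 times Gfi1 with EVI1-WT and 0.833 times with EVI1+18, a change of 0.306 (0.254 to 0.368). In counts, the ratio of Cebpa to Gfi1 was 5.38 and 4.63, and its change of 0.862 had an interval that held equality (0.742 to 1.001). Gfi1 to Gfi1b was 0.890 with EVI1-WT and 0.272 with EVI1+18, a change of 0.305 (0.258 to 0.362). Per kb of exon that ratio was 0.511 and 0.156.

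The 6 Cebp genes together held 10407 counts with EVI1-WT and 9647 with EVI1+18. Cebpe took 12.1% of them in EVI1-WT (exact binomial interval 11.5 to 12.7) and 3.47% in EVI1+18 (3.12 to 3.86). The share of Cebpg went the other way, from 9.85% (9.28 to 10.4) to 18.8% (18.1 to 19.6). Cebpa held 23.9% and 19.3%, and Cebpb held 35.2% (34.3 to 36.1) and 36.0% (35.0 to 36.9), with intervals that overlapped. Longer transcripts give more reads, and Cebpg has the longest exons of the 6. Per kb of exon Cebpb held 48.5% and 56.4% of the family, Cebpe 20.2% and 6.60%, and Cebpg 3.63% and 7.90%. In percentage points per kb, the share of Cebpb thus rose by more than that of Cebpg, whereas on reads the share of Cebpg rose the most. Relative to its value in EVI1-WT, the share of Cebpg rose more than that of Cebpb on both measures. The level of Cebpb itself was 1.13-fold lower in EVI1+18. Its share rose as the summed level of the 6 genes per kb went from 251 to 191 scaled CPM. Cebpa held 18.8% and 17.3% per kb, and Cebpd 3.57% and 4.02% of reads and 1.98% and 2.53% per kb.

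**Figure D3:**
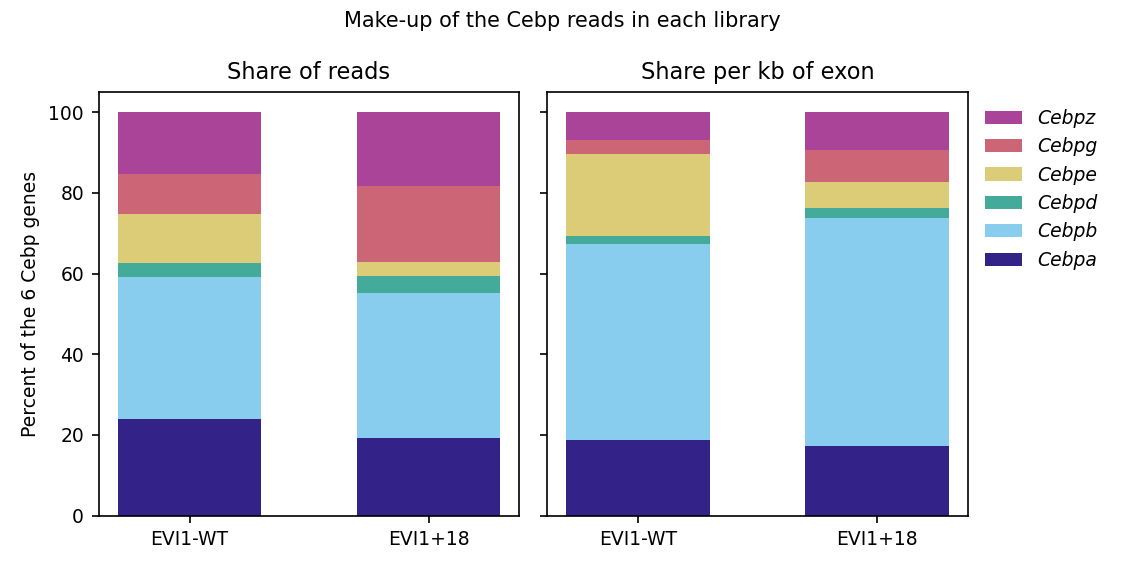
Share of each Cebp gene in the summed level of the 6, as reads (left) and per kb of exon (right), with 1 bar per library. The Cebpe segment shrinks from 12.1% to 3.47% of reads and the Cebpg segment grows from 9.85% to 18.8%.

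The list of C/EBPε targets holds granule genes and other genes of mature neutrophils. Of 13 tested, 8 were called lower, 5 neither and 0 higher, where 5.10% of all tested genes were lower and 5.05% higher. The list median (log2 ratio) was -1.50 beside 0.01 over all tested genes. These genes also mark mature neutrophils, so the list and the abundance of such cells cannot be told apart. The neutrophil surface protein Ly6g had 27.5 scaled CPM with EVI1-WT and 1.63 with EVI1+18, with a log2 ratio of -4.00. The neutrophil antigen Cd177 had 8.54 and 1.07 scaled CPM, the chitinase-like Chil3 1514 and 276, and the neutrophilic granule protein Ngp 323 and 74.2. All of these were called lower. Chil3 has a near copy in Chil4, and how reads common to both were counted is not known. The gelatinase Mmp9 went the other way at low counts, with 13 and 40, and was not called. The other 4 genes without a call, named after their values were seen, include the granule genes Lcn2 (112 and 74.2 scaled CPM), Mmp8 (43.7 and 35.0) and Camp (2.05 and 0.652). The fourth was Padi4, which encodes an enzyme that modifies histones, at 304 and 167. Several of the called genes, such as Ly6g and Cd177, encode surface proteins rather than granule contents.

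The list of early targets of C/EBPα, which holds growth factor receptors and primary granule genes, did not go down with Cebpa. Of 10 tested, 1 was called higher and 1 lower, beside 5.05% and 5.10% of all tested genes. These are too few calls to set the list apart. The list median (log2 ratio) was 0.65. Lysozyme, Lyz2, was the one called higher, at 967 scaled CPM with EVI1-WT and 2397 with EVI1+18, with the same reserve for its near copy Lyz1. The receptor genes Csf1r (27.0 and 51.5 scaled CPM) and Csf2ra (49.8 and 78.2) and the protease Prtn3 (127 and 201) had higher values in EVI1+18 without a call. Cathepsin G, Ctsg, was called lower, at 626 and 280, and neutrophil elastase, Elane, had 72.7 and 51.7. Among these proteases Prtn3 therefore lay on one side of equality (ratio interval 1.501 to 1.66) and Elane, short of a call, on the other (0.658 to 0.770).

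Inflammatory targets of C/EBPβ and C/EBPδ split as well, while Cebpb and Cebpd themselves differed little. Of 10 tested out of 14, 3 were called lower and 2 higher, beside 5.10% and 5.05% of all tested genes. The list median (log2 ratio) was -0.38. The chemokine Ccl3 had 305 scaled CPM with EVI1-WT and 41.9 with EVI1+18, interleukin 6 (Il6) 296 and 65.9, and the prostaglandin synthase Ptgs2 61.7 and 17.1. The endotoxin co-receptor Cd14, at 25.3 and 11.0, had an interval for the ratio of 0.371 to 0.509, just short of the call. Arginase 1 (Arg1), at 5.69 and 26.5, and serum amyloid A3 (Saa3), at 0.799 and 3.50, were called higher. Mast cell and basophil markers moved with the lower genes: 6 of 9 were called lower and 2 higher, and their summed level was 4610 scaled CPM with EVI1-WT and 442 with EVI1+18, with none at 0. Of 7 tested monocyte and macrophage markers, 2 were called in each direction, with a summed level of 1127 and 507 and C1qa at 0 in both. Their part in this list was not tested.

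Partners and regulators of C/EBP proteins held both the higher and the lower side. Of 11 tested out of 13, 3 were called higher and 2 lower, beside 5.05% and 5.10% of all tested genes. The list median (log2 ratio) was 0.69, or 0.29 with a filter at 5 scaled CPM. The bZIP factor Atf5 had 11.3 scaled CPM with EVI1-WT and 87.5 with EVI1+18, a 7.72-fold higher level (6.72 to 8.90). Trib3, a pseudokinase induced by ATF4, had 23.5 and 117, and Atf3 10.8 and 38.4. Ddit3, which encodes CHOP, a C/EBP that blocks the binding of its partners, had 20.6 and 37.1 and was not called. Atf4, the partner of C/EBPγ named above, had 366 and 592 and was not called either (ratio 1.62, interval 1.57 to 1.66). On the lower side, the bZIP repressor Nfil3 had 119 and 29.9 scaled CPM and was 3.99-fold lower (3.65 to 4.36). Trib1, which with the ligase COP1 marks C/EBPα for breakdown, had 16.1 and 6.25 and was called lower, while Cop1 had 75.9 and 70.5. Trib2, its relative with the same action on C/EBPα, had 0 counts in both libraries, which allows up to 0.150 and 0.140 scaled CPM. Atf4 and Cop1 were named after their values were seen.

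The enzymes and scaffold proteins through which GFI1 represses its targets were nearly level between the libraries. Of 12 tested genes, 1 was called higher, which was Gfi1b itself, and 0 lower, beside 5.05% and 5.10% of all tested genes. The list median (log2 ratio) was 0.002. The demethylase Kdm1a had 75.3 scaled CPM with EVI1-WT and 84.5 with EVI1+18. The deacetylases Hdac1 and Hdac2 had 188 and 170, and 93.7 and 99.9. Ajuba was the furthest on the lower side, at 6.79 and 3.36, and was not called. Of 8 tested genes out of 10 that GFI1 is known to repress, 2 were called lower and 2 higher. Over all tested genes, 5.10% were lower and 5.05% higher. The list median (log2 ratio) was -0.008, or 0.06 with total counts. Id2, an inhibitor of basic helix-loop-helix factors, had 180 and 40.5 scaled CPM, and the macrophage growth factor Csf1 had 671 and 160. The homeobox gene Meis1, with 6 and 197 counts, and the monocyte and dendritic cell factor Irf8, with 40 and 223 counts, were the ones called higher. Nab2 and Cdkn1a had 32.5 and 28.3, and 275 and 261 scaled CPM.

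Of 11 tested among 12 other factors that set myeloid fate, 5 were called higher and 0 lower, beside 5.05% and 5.10% of all tested genes. The list median (log2 ratio) was -0.26. The erythroid factors Klf1 (8.64 and 61.4 scaled CPM) and Zfpm1 (53.4 and 397) were on the higher side, along with the same erythroid markers that moved with Gfi1b. The others called higher were Gata1 (61.7 and 157 scaled CPM), Maf (0.949 and 5.97) and Klf4 (5 and 39 counts). They were named after their values were seen. Gata2, at 769 and 376, missed the call on the lower side, with an interval for the ratio of 0.476 to 0.503. Fli1 had 85.6 and 51.6, Runx1 223 and 161, and its partner Cbfb 142 and 114. The 12 nucleolar relatives of CEBPZ had a median log2 ratio of 0.18, with 0 called in either direction, as Cebpz itself was not. Noc4l had 53.5 and 86.6 scaled CPM, Wdr12 65.5 and 91.0, Nop58 228 and 296, Nop14 60.9 and 78.4, and Bop1 107 and 102.

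**Figure D4:**
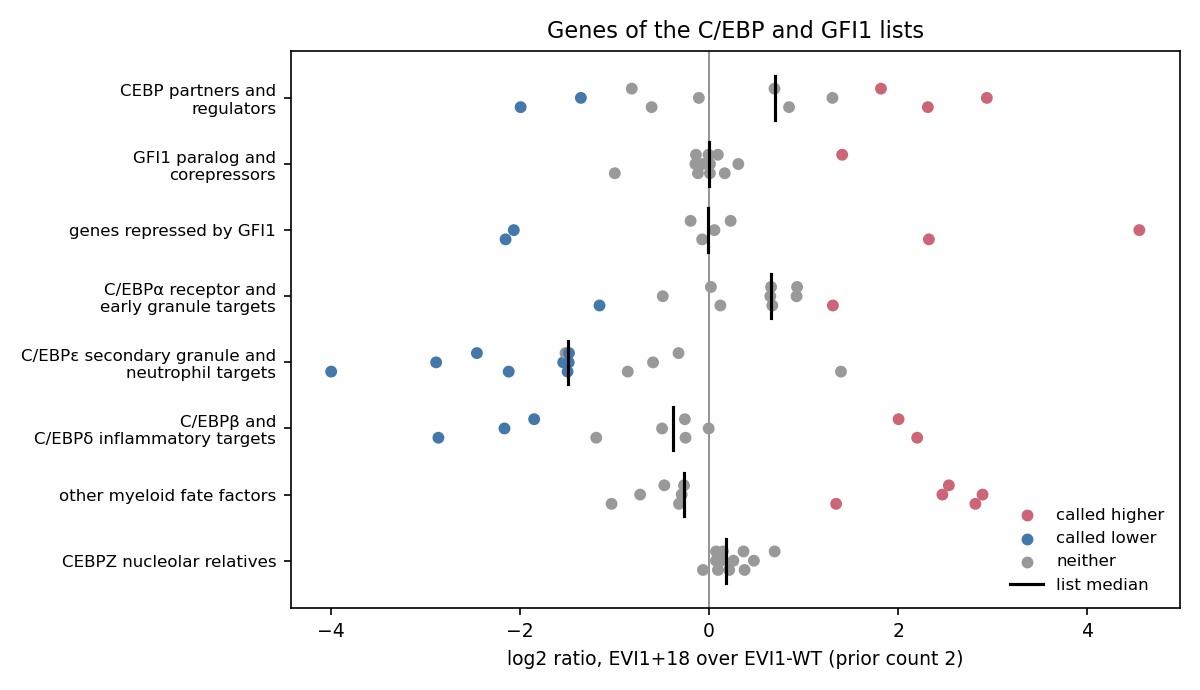
Log2 ratio (prior count of 2) of every tested gene in the 8 lists, EVI1+18 over EVI1-WT, with the list median as a bar. The C/EBPε list lies mostly on the lower side, with a median of -1.50, while the C/EBPα list has a median of 0.65 and the GFI1 corepressors cluster at 0.

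The genes beside the 7 on the chromosome were read in the same way. Slc7a8, an amino acid transporter gene 10035 bases from Cebpe on the same strand, had 1958 counts with EVI1-WT and 711 with EVI1+18, or 97.8 and 33.1 scaled CPM. It was called 2.95-fold lower (2.71 to 3.22), in the same direction as Cebpe. Evi5, the gene 18.8 kb from Gfi1 on the same strand, had 77 and 300 counts, or 3.84 and 13.98 scaled CPM. It was called 3.64-fold higher (2.82 to 4.73), while Gfi1 was slightly lower. On the other side of Gfi1, Rpap2 had 15.4 and 13.3 scaled CPM, and its interval held equality. Pepd, beside Cebpg, had 57.8 and 59.7, so that Cebpg lay between Pepd, with a ratio of 1.03 (0.954 to 1.12), and the lower Cebpa. The noncoding Gm45091, which overlaps the start of Cebpa on the opposite strand, had 3 and 4 counts, and A430072P03Rik, at the start of Gfi1, had 17 and 7.

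**Figure D5:**
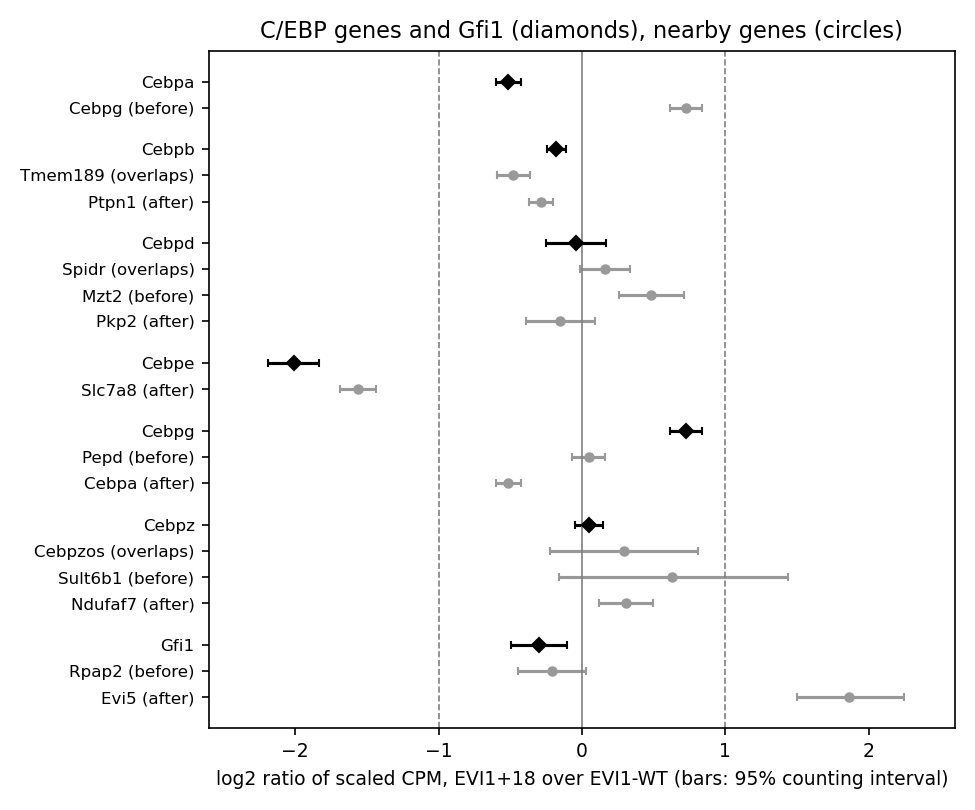
Log2 ratio of scaled CPM, EVI1+18 over EVI1-WT, for each of the 7 genes (diamonds) and the tested genes that overlap it or are its nearest protein-coding neighbours (circles), where before and after refer to increasing chromosome position. Bars are 95% counting intervals, and Slc7a8 lies on the side of Cebpe while Evi5 lies opposite Gfi1.

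With 2 libraries, a pattern is a pair of levels. The genes nearest to each of the 7 were found by the distance between pairs of log2(scaled CPM + 1). For Cebpe they were Rab11fip4 (67.3 and 15.8 scaled CPM; distance 0.0968), Azin2 (58.8 and 16.5) and Ptgs2 (61.7 and 17.1). For Cebpa they included Tmem64 (124 and 85.2; distance 0.0264) and BC037034. Those nearest to Cebpg were Rae1 (49.8 and 84.9; distance 0.0379), Hnrnpll and Sla, and those nearest to Gfi1 were Insig2 (23.4 and 18.6; distance 0.0232), Rxylt1 and Ift80. For Cebpb, Cebpd and Cebpz the nearest genes were Gstm1, Slc35e4 and Cnot6l. Cebpe thus had more distant nearest genes than Cebpa, Cebpg or Gfi1.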

How the data were processed

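The authors deposited 1 table of raw read counts per Ensembl gene, with 1 column per library and no unmapped column (0). GRCm38, HISAT2 2.2.1, featureCounts (Subread), SAMtools and edgeR are named per the submitters' processing notes, with roles and settings not given in the sources used here. Of 55487 IDs, 55227 matched GENCODE M21 (GRCm38), which gave symbols, coordinates and exon lengths. Promoter windows came from RefSeq (GRCm38.p6).

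Columns were assigned to libraries by the sample titles, and libraries to groups by the vector in the labels. Libraries were scaled with edgeR 4.0.16 (TMM, R 4.3.3). With 1 library per group, edgeR's quasi-likelihood test could not be run. Counting intervals were computed in scipy 1.17.1, log2 ratios used a prior count of 2, and a count of 0 was read as up to 3 counts. The calling rule was tested on simulated Poisson counts, which carry counting error only, so spread between cultures was not part of that test. Without molecular identifiers, reads do not count independent molecules. Per list, up to 4 tested genes in the direction of its median and 2 in the other were named, by the interval bound nearest to 1. Some genes that these rules take are not reported here. The genes and lists were chosen with earlier results of these data known. Alternatives were other scalings (total counts, DESeq2 1.42.0 size factors), filters, calling rules and prior counts, and for the shares, reads per kb of exon.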

Additional observations from a re-analysis of the deposited data

How the results depend on the processing

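The log2 ratios of the 7 genes stayed inside their counting intervals with total counts, DESeq2 size factors and a prior count of 0.5, and that of Cebpe ranged from -2.01 to -1.94. All but Cebpd kept their sign in these 4 settings. Cebpe was the 1 gene called lower in all 6 alternatives, and 0 were called higher except past 1.5-fold, where 1 was (Cebpg). Over all genes, 431 were called higher with a filter at 5 scaled CPM. Past 1.5-fold, 1093 were called higher and 1290 lower, and with no interval 1037 and 1105. Of the other values, on lists and shares, 27 of 148 moved and 121 did not. All shares of the 6 Cebp genes moved when taken per kb of exon, which is another measure than reads. Other moves came with other scalings, filters and calling rules, and their cause was not tested. No paired analysis was possible because each group has 1 library and the result comes from no test. At these depths, Trib2 and genes with few counts such as Mmp9 (13 and 40) limit what the lists can show.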
